A study of Homo sapiens with 6 samples.

Results

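The genes described here are 10 genes that act on lipid peroxides or on the fatty acids they form from. *GPX4*, *AIFM2*, *DHODH* and *GCH1* defend membranes against them, *ACSL1*, *ACSL3*, *ACSL4*, *ACSL5* and *ACSL6* activate long-chain fatty acids, and *LPCAT3* places them in phospholipids. They were chosen by name for these roles and each was matched to 1 of the 61806 Ensembl gene rows by its symbol. RNA was sequenced from 6 libraries of MV4-11, a human acute myeloid leukemia (AML) cell line with an internal tandem duplication in *FLT3*, to ask what lowering *ATGL* does to gene expression. In 3 libraries (shNC 1 to 3) the cells carried a control shRNA, and 3 libraries (shATGL 1 to 3) are labelled as carrying an shRNA against *ATGL*, the lipase that frees fatty acids from the triacylglycerol of lipid droplets. All 6 share the same line with no drug treatment given in the labels, and the labels do not say which *ATGL* sequence was used, whether the libraries come from separate cultures or whether the cells were 1 clone. The study's methods describe delivery of its shRNAs by lentiviral vectors. P-values therefore measure the spread between these libraries, which may be technical.

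Ferroptosis is an iron-dependent cell death in which polyunsaturated fatty acids held in phospholipids are oxidised. A long-chain acyl-CoA synthetase first couples a free fatty acid to coenzyme A, and *LPCAT3* then esterifies polyunsaturated acyl-CoA into lysophospholipids. *GPX4* reduces phospholipid hydroperoxides with glutathione, whereas *AIFM2* (also called FSP1) at the plasma membrane and *DHODH* in the inner mitochondrial membrane regenerate reduced coenzyme Q, and *GCH1* opens the synthesis of tetrahydrobiopterin, a radical-trapping cofactor. Fatty acids released by *ATGL* need an acyl-CoA synthetase before they can enter either oxidation or membrane lipids.

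The libraries held between 59674064 and 74808280 counted reads, and values are given as CPM, counts scaled to a common library size after TMM normalisation. Genes with too few reads were removed, which left 19149 genes, among them 9 of the 10 members. All 10 markers of the myeloid line, such as *SPI1* and *CD33*, had a mean above 1 CPM, with a summed level of 2540 to 2650 CPM in shNC and 2400 to 2530 CPM in the shATGL-labelled libraries. Of 28 markers of other cell types, 14 had no count in any library, and those above 1 CPM included *NKG7*, *CD79A*, *PAX5* and *PECAM1*. The chi-square per degree of freedom between 2 shNC libraries went from 11.3 to 26.2, and that of shATGL 3 against its own group was 84.0 and 87.6, while shATGL 1 and 2 gave 12.3. No pair of replicates was within sampling noise, and shATGL 3 stood apart from the other 2 libraries of its group.

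No reduction of the targeted RNA was measured in these libraries. The gene of *ATGL*, *PNPLA2*, had 101, 97.0 and 107 CPM across shNC 1 to 3, and shATGL 1 to 3 had 102, 98.1 and 104 CPM (log2 fold change −0.01, 95% confidence interval −0.15 to 0.14, edgeR adjusted p = 0.979). The differences below therefore compare libraries by their label.

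The sequences given here are the 2 that the study lists for its shRNAs against *ATGL*, and the selenocysteine codon of *GPX4*. The promoters of the members with the highest level and the widest spread are given too. The names shATGL-1 and shATGL-2 below are those of the listed sequences and not of the libraries. Without the TT that ends each, the 2 sequences listed for the shRNAs are as follows, and each is the reverse complement of the other, so both name a single site.
shATGL-1: gugccaaguucauugaggu
shATGL-2: accucaaugaacuuggcac
Of the GENCODE 29 transcripts of *PNPLA2*, at least 1 held the 19 bases without a mismatch. Over all transcripts of each member, read on the sense strand, the nearest match in *ACSL6* had 4 mismatches, those in *AIFM2* and *ACSL1* had 5, those in *DHODH*, *ACSL4* and *LPCAT3* had 6, and those in *GPX4*, *GCH1*, *ACSL3* and *ACSL5* had 7.

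*GPX4* is a selenoprotein, whose active-site residue is written as a TGA that would elsewhere end translation. In transcript ENST00000354171 the codon is number 73 and lies in exon 3 of 7. The stretch below is coding sequence at chr19:1105373-1105435 on the plus strand of GRCh38, from the GENCODE 29 annotation, with the selenocysteine codon in capitals.
GPX4 codon: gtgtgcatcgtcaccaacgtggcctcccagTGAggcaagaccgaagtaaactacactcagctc
The files do not name the annotation behind the counts, so these positions describe the genes and not the counted reads.

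Promoter windows of 300 bases, 250 before the start and 50 after it, were available from RefSeq (GRCh38.p14) for 9 of the 10 members. *GCH1* had no window and was not searched. The 120 bases just before the RefSeq start are shown for *GPX4* (chr19:1103874-1103993, plus strand), *ACSL3* (chr2:222860916-222861035, plus strand) and *ACSL4* (chrX:109733258-109733377, minus strand). These are the most abundant member and the 2 with the widest spread between replicates. The gene spans given below start elsewhere, at 1103926 for *GPX4*, 222860934 for *ACSL3* and, on the minus strand, 109733403 for *ACSL4*. By those spans the *GPX4* and *ACSL3* stretches run across the start into the gene. The *ACSL4* stretch lies wholly inside it. Capitals mark matches to GGGCGG (GC box) or CCAAT on either strand.
GPX4 promoter: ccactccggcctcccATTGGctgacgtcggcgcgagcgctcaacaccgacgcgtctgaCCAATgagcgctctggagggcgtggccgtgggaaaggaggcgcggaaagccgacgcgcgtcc
ACSL3 promoter: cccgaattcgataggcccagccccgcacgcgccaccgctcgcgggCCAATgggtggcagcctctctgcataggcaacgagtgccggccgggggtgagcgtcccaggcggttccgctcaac
ACSL4 promoter: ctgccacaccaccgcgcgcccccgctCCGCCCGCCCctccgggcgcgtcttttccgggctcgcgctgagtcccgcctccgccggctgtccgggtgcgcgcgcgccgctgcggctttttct
In the 300-base windows *GPX4* held CCAAT 3 times and GGGCGG once, *ACSL3* held CCAAT once and GGGCGG 3 times, and *ACSL4* held GGGCGG 3 times, of which 2 overlapped by 2 bases in the stretch shown, and CCAAT 0 times. Over 35116 promoters of this length, 45.0% held GGGCGG and 34.6% held CCAAT. None of the 9 windows held TATAAA, which 11.5% of promoters did. TGACNNNGC, the core letters of the antioxidant response element, was held by 13.3% of promoters and, among the 9 members with a window, by *AIFM2* and *ACSL6*.

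Calls required 0.05 for the adjusted p-value together with a 2-fold difference in edgeR's quasi-likelihood test, and 0 of 9 members met both, where 0.00522% of all 19149 genes did. At the unadjusted threshold of 0.05 there were also 0 of 9 members, where 11.7% of all genes passed (5.77% higher and 5.94% lower). DESeq2 on the same counts gave 0 members at either threshold, where 0.555% of genes passed the adjusted and 12.1% the unadjusted one. limma voom with quality weights put 0 members past the adjusted threshold, which 10.8% of genes passed, and 5 past the unadjusted one, which 30.6% of genes passed. Of the 9, 4 were higher and 5 were lower by their fitted value, with a median log2 fold change of −0.11, against a median of 0.01 over all genes tested. The groups did not overlap for 2 of 9 members, *DHODH* and *ACSL1*, where 17.3% of all genes tested did not overlap (7.93% higher and 9.38% lower). In all exact permutation tests below, the 20 relabellings of 3 libraries against 3 allow no two-sided p-value under 0.1.

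**Figure D1:**
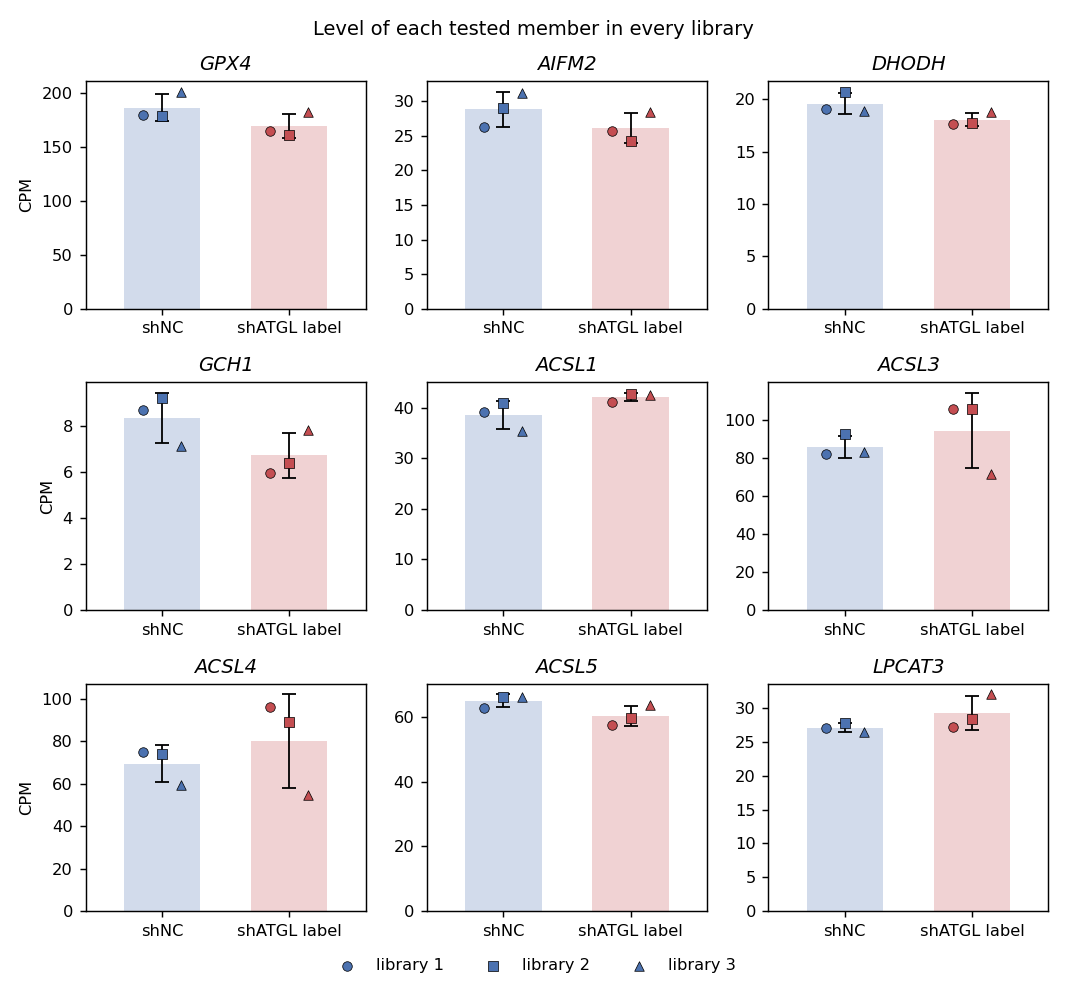
CPM (y axis, from 0) of the 9 tested members in every library of shNC and of the shATGL-labelled libraries. Bars are means, whiskers are the SD (n = 3) and symbols are libraries 1, 2 and 3. The shATGL-labelled libraries split in *ACSL3* and *ACSL4*, where shATGL 3 lies below every shNC library, and the groups do not overlap in *DHODH* and *ACSL1*.

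The 4 defence genes each had a lower mean in the shATGL-labelled libraries, and none passed the test. In RNA from a whole culture, fewer cells with a transcript and less of it per cell cannot be told apart. *GPX4* (chromosome 19, 1103926 to 1106791) had 179, 179 and 201 CPM across shNC 1 to 3, and shATGL 1 to 3 had 165, 161 and 182.5 CPM. In both groups library 3 was the highest, and shATGL 3 lay above 2 of the 3 shNC libraries. The means were 187 ± 12.7 and 170.0 ± 11.2 CPM (SD, n = 3), a ratio of 91.0% whose 95% confidence interval ran from 80.6% to 103% (exact permutation p = 0.3). With the replicate number as a block, the same log2 fold change of −0.14 had an adjusted p of 0.189 from edgeR and was the 1 member of 9 with an unadjusted p-value under 0.05, where 17.3% of all genes had one in that fit.

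*AIFM2* (chromosome 10, 70098223 to 70132934) had 26.2, 29.04 and 31.2 CPM across shNC 1 to 3, against 25.7, 24.2 and 28.4 CPM across shATGL 1 to 3, so the groups overlapped. *H2AFY2*, with 424 to 537 counts per library, overlaps its exons on the opposite strand. The log2 fold change was −0.14 (standard error 0.10, edgeR adjusted p = 0.58). *DHODH* (chromosome 16, 72008588 to 72027664) had 19.1, 20.7 and 18.9 CPM across shNC 1 to 3, against 17.7, 17.8 and 18.8 CPM across shATGL 1 to 3. The highest of the latter, shATGL 3, was close to the lowest of the former, shNC 3, and no library of one group crossed into the other. The log2 fold change was −0.12 with a 95% confidence interval of −0.32 to 0.09 (edgeR adjusted p = 0.604, exact permutation p = 0.1).

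*GCH1* (chromosome 14, 54842008 to 54902852) was the least abundant member tested and had the largest fitted difference. It had 8.70, 9.21 and 7.12 CPM across shNC 1 to 3, against 5.95, 6.41 and 7.80 CPM across shATGL 1 to 3. Library 3 was the lowest in shNC and the highest of the shATGL-labelled libraries, and these 2 crossed. This gave a log2 fold change of −0.31 (standard error 0.16, with 95% limits of −0.67 and 0.05, unadjusted p = 0.0809, edgeR adjusted p = 0.468), from 441 to 630 counts per library. Its interval reaches down to 62.7% of shNC, the lowest bound of any member.

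The fitted differences of the acyl-CoA synthetases had both signs. *ACSL1*, *ACSL3* and *ACSL4* had fitted values above 0 and *ACSL5* below 0, and none passed the test. *ACSL1* (chromosome 4, 184755595 to 184826818), the isozyme that dominates in fat and heart, had 39.2, 41.0 and 35.5 CPM across shNC 1 to 3, against 41.2, 42.7 and 42.5 CPM across shATGL 1 to 3. The shATGL-labelled libraries lay close together and just above the highest shNC library. The log2 fold change was 0.13 with a 95% confidence interval of −0.06 to 0.31 (edgeR adjusted p = 0.538, exact permutation p = 0.1).

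*ACSL3* (chromosome 2, 222860934 to 222944639) sits on lipid droplets and is known for activating monounsaturated fatty acids. It had 82.3, 92.6 and 82.9 CPM across shNC 1 to 3, against 106, 106 and 71.6 CPM across shATGL 1 to 3. shATGL 1 and 2 were above and shATGL 3 below every shNC library. Over all 6 libraries this gave a log2 fold change of 0.14 (standard error 0.15, with 95% limits of −0.21 and 0.48, edgeR adjusted p = 0.731).

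*ACSL4* (chromosome X, 109624244 to 109733403), which prefers arachidonic acid and related polyunsaturated fatty acids, split in the same way. It had 74.9, 74.2 and 59.3 CPM across shNC 1 to 3, against 96.0, 89.0 and 54.8 CPM across shATGL 1 to 3. Here too shATGL 1 and 2 exceeded each shNC library and shATGL 3 was the lowest of the 6. The fitted ratio to shNC was 115%, with 95% confidence limits of 83.1% and 160% (exact permutation p = 0.6), the widest interval among the members. *KCNE5* overlaps the end of *ACSL4* on the same strand and had between 197 and 354 counts per library, where *ACSL4* had between 3295 and 7117.

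*ACSL5* (chromosome 10, 112374018 to 112428380), a mitochondrial and endoplasmic reticulum isozyme, had 62.5, 66.1 and 66.0 CPM across shNC 1 to 3, against 57.5, 59.6 and 63.6 CPM across shATGL 1 to 3. shATGL 3 lay within the shNC range and the other 2 below it. This gave a log2 fold change of −0.11 (standard error 0.07, with 95% limits of −0.26 and 0.05, edgeR adjusted p = 0.543). Exons of *ZDHHC6* overlap those of *ACSL5* on the opposite strand, and the strand setting of the counting is not given, so reads of the 2 genes (4518 to 5372 counts per library for *ZDHHC6*) could have been shared there.

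*ACSL6* (chromosome 5, 131949973 to 132012243), an isozyme of brain and of erythroid cells, had 1 count in shATGL 3 and 0 counts in the other 5 libraries. A count of 0 allows up to 3 counts, which is 0.0392 to 0.0504 CPM depending on the library, by counting error only. It was therefore not tested, and no fold is given. *LPCAT3* (chromosome 12, 6976186 to 7018510) had 27.1, 27.7 and 26.4 CPM across shNC 1 to 3, against 27.1, 28.4 and 32.0 CPM across shATGL 1 to 3. Only shATGL 2 and 3 were above the shNC range, and shATGL 3 was the highest of the 6. Its log2 fold change was 0.11 (95% confidence interval −0.10 to 0.31, edgeR adjusted p = 0.632). *EMG1* overlaps *LPCAT3* on the opposite strand, with 3020 to 4030 counts per library against 1649 to 2175 for *LPCAT3*.

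Levels between genes were compared as CPM per kilobase of the longest basic transcript of GENCODE 29. *GPX4* was the most abundant member by far, with 161 to 201 CPM per kb over the 6 libraries, and its level lay above 94.6% of all genes tested on the CPM scale. *ACSL5* followed with 17.0 to 19.6 CPM per kb, *ACSL3* with 12.6 to 18.6, *ACSL4* with 10.3 to 18 and *LPCAT3* with 11.6 to 14.1. The ranges of these 4 overlapped from each one to the next, so their order is not fixed beyond the spread between libraries. *ACSL1* (8.65 to 10.4 CPM per kb) and *AIFM2* (7.45 to 9.61 CPM per kb) overlapped each other and lay below *LPCAT3*. *DHODH* with 3.66 to 4.29 and *GCH1* with 2.02 to 3.13 CPM per kb closed the order without overlap. With the summed exon length in place of the transcript length, *GPX4* was at 92.4 CPM per kb in shNC, still the highest, and *LPCAT3* at 5.73 CPM per kb fell below *ACSL1* at 6.14. On that scale *DHODH* and *GCH1* were both at 2.83 CPM per kb in shNC, so their separation depends on the length used.

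The balance of the isozymes was read as the share of each in the counts of all ACSL genes of a library, which no normalisation of library size changes. After division by transcript length, *ACSL5* took 32.7%, 32.7% and 36.2% in shNC 1, 2 and 3 and 26.7%, 27.9% and 36.1% in the libraries labelled shATGL 1, 2 and 3. *ACSL4* took 24.8%, 23.3% and 20.6% in shNC and 28.3%, 26.4% and 19.8% in the shATGL-labelled libraries. *ACSL5* was thus the largest share in the 3 shNC libraries and in shATGL 3, while in shATGL 1 and 2 *ACSL3* (29.3% and 29.4%) and, in shATGL 1, also *ACSL4* exceeded it. shATGL 3 lay near shNC 3 in *ACSL5* and *ACSL4*. It had the highest *ACSL1* share of the 6 libraries, 19.9% against at most 16.9% in shNC, and the lowest *ACSL3* share, 24.2% against at least 25.6% in shNC. The exact permutation test could not have put any of the 5 shares under 0.05, since its smallest two-sided p-value is 0.1. Its p-values adjusted over the 5 isozymes were 1.0 for each, on counts and per kilobase.

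**Figure D2:**
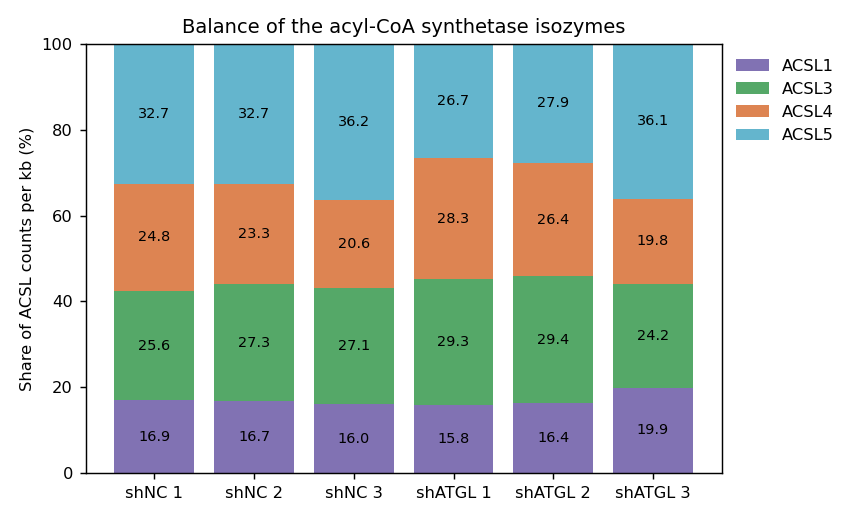
Share (%, y axis) of each acyl-CoA synthetase isozyme in the ACSL counts per kilobase of transcript, for every library (x axis), with the share printed in each segment. *ACSL6* is left out because it had 1 count in all. shATGL 1 and 2 have the smallest *ACSL5* shares, 26.7% and 27.9%, and shATGL 3 with 36.1% is close to shNC 3 with 36.2%.

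The ratio of *ACSL4* to *ACSL3*, the isozymes known for polyunsaturated and for monounsaturated fatty acids, was 0.91, 0.801 and 0.715 in the counts of shNC 1, 2 and 3 and 0.907, 0.843 and 0.766 in the shATGL-labelled libraries. The ranges lay within each other, and the log2 ratio differed by 0.06 (−0.31 ± 0.17 against −0.26 ± 0.12, SD, n = 3, exact permutation p = 0.8). Although each gene alone ranged widely in the shATGL-labelled libraries, the ratio between them stayed within the range seen in shNC.

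The members differed in how much they varied between replicates. The pooled SD within groups, on the log2(CPM + 1) scale, was 0.33 for *ACSL4* and 0.24 for *ACSL3*, larger than in 92.7% and 89.3% of the 1000 genes nearest to each in level. *DHODH*, with 0.06, was less variable than all but 7.1% of its neighbours, and *ACSL5*, *ACSL1* and *LPCAT3* stood at 20.4%, 28.1% and 28.7%. For *ACSL4* the coefficient of variation was 12.7% in shNC and 27.6% in the shATGL-labelled libraries, and for *ACSL3* it was 6.72% and 20.9%.

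Values that moved with this spread were the trends of whole libraries with transcript length and GC content. The deviation of a gene from its mean over the libraries had a Spearman's rho with GC content of −0.28 in shATGL 1 and −0.32 in shATGL 2, of 0.39 in shATGL 3 and of 0.31 in shNC 3, and between −0.08 and 0.00 in the other 2. With length, rho was 0.21 in shATGL 1, 0.23 in shATGL 2 and −0.33 in shNC 3, but −0.05 in shATGL 3, which was closer to 0 than the −0.10 of shNC 1. *ACSL3* and *ACSL4* have the longest transcripts and the lowest GC content among the members tested (5679 and 5333 bp, 38.1% and 37.4% GC), while *GPX4* has the shortest and richest in GC (1002 bp, 65.2%). For a gene of the length and GC content of *ACSL4*, the trend stood at 0.27 and 0.28 on the log2 scale in shATGL 1 and 2 and at −0.25 in shATGL 3, where *ACSL4* itself deviated by 0.39, 0.28 and −0.41. In shNC 3 the trend was −0.24 and *ACSL4* deviated by −0.30.

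**Figure D3:**
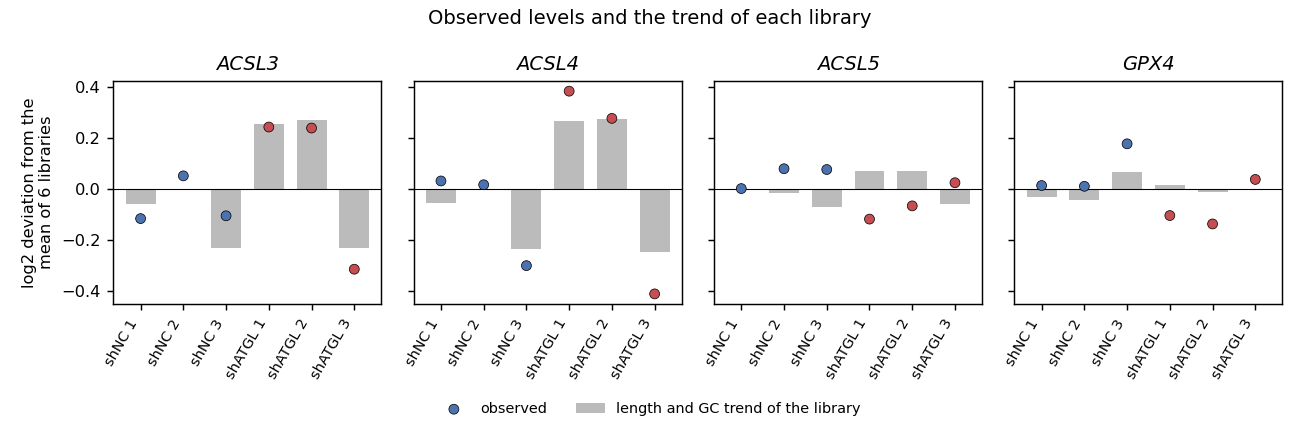
Log2 deviation of *ACSL3*, *ACSL4*, *ACSL5* and *GPX4* from their mean over the 6 libraries (points, blue for shNC and red for the shATGL-labelled libraries), beside the trend of each library with transcript length and GC content for a gene of that length and GC content (grey bars). In *ACSL4* the points follow the bars in the libraries with the largest trends, 0.39 beside 0.27 in shATGL 1 and −0.41 beside −0.25 in shATGL 3, whereas *ACSL5* and *GPX4* have small bars in every library.

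Leaving out shATGL 3 took *ACSL3* and *ACSL4* past the threshold for the adjusted p-value. Without it their log2 fold changes were 0.30 (edgeR adjusted p = 0.0229) and 0.41 (edgeR adjusted p = 0.0349), so 2 of 9 members, both higher, passed it, where 14.0% of all genes tested did (7.94% higher). Neither reached the fold of 2, so 0 of 9 members were called, where 1.6% of genes were. At the unadjusted threshold there were then 5 of 9 members, where 28.8% of all genes passed. The other omissions in this group lowered both fitted values, to 0.04 for *ACSL3* and 0.05 for *ACSL4* without shATGL 1, and to 0.05 and 0.12 without shATGL 2. Without shNC 3 *ACSL4* was at 0.10, *ACSL1* at 0.07 and *GPX4* at −0.08, and 1 of 9 members, *GCH1*, passed the unadjusted threshold, where 5.58% of all genes did. *DHODH* went to −0.05 without shNC 2. Without shATGL 3, *LPCAT3* was at 0.04, and *GPX4* and *GCH1* were at −0.19 and −0.43 (edgeR adjusted p = 0.0812 and 0.0979). With each library's length and GC trends removed and all 6 libraries kept, *ACSL3* was at −0.08 (edgeR adjusted p = 0.557) and *ACSL4* at −0.02 (edgeR adjusted p = 0.917), so both changed sign. *GPX4* was at −0.14 and *GCH1* at −0.36 in that fit. The median over all genes tested moved as well, from 0.0115 to −0.0546. *ACSL4* lay above that corrected median and *ACSL3* below it. The part of this general shift in the sign changes was not tested. This correction also takes out any difference that long or GC-poor genes share between the groups.

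**Figure D4:**
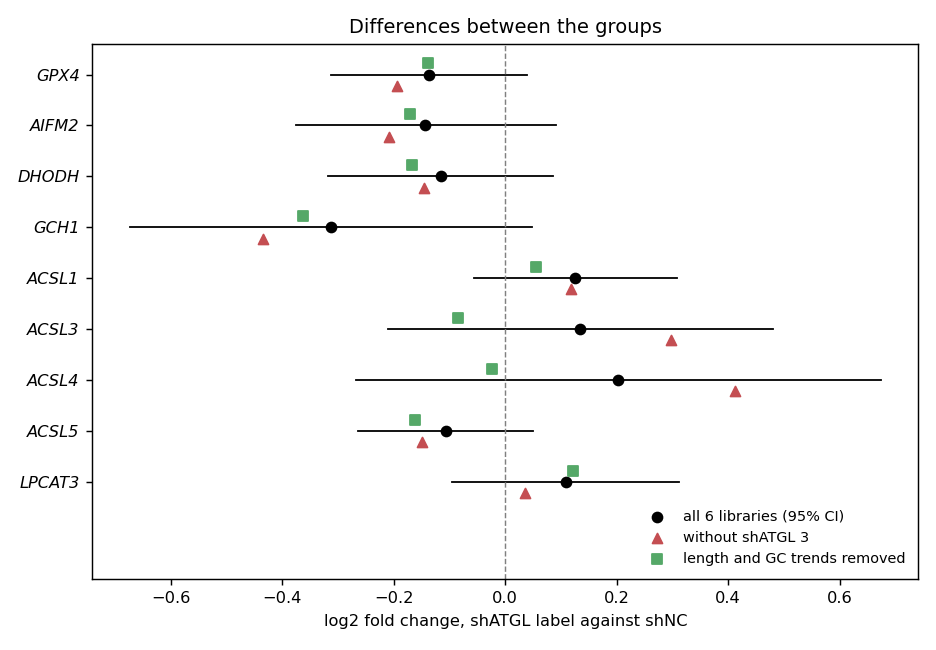
Log2 fold change (x axis) of each tested member between the shATGL-labelled libraries and shNC. Black points with lines are the fit over all 6 libraries with its 95% confidence interval, red triangles the fit without shATGL 3, and green squares the fit with length and GC trends removed. Every interval spans 0, and the 3 fits differ most for *ACSL4*, from −0.02 to 0.41.

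The genes around the members were read in 10 lists, written from general knowledge, grouped by role and counted as higher or lower by the sign of the fitted value. Of 172 distinct genes, 158 were tested, of which 54 had a fitted value above 0 and 104 below, with a median log2 fold change of −0.05, and none passed the adjusted threshold of 0.05. Of all genes tested 51.9% were above 0 and 48.1% below. The fitted value went with transcript length, from a median of −0.08 over the 4642 genes with the shortest transcripts to 0.09 over the 4642 with the longest. The part of length in the signs of the list genes was not tested. The unadjusted threshold of 0.05 was passed by 28 genes, 7 higher and 21 lower, which is 17.7% of those tested against 11.7% of all genes. With length and GC trends removed it was passed by 36 list genes, and the share of all genes was not counted in that fit. With DESeq2 it was passed by 20, where 12.1% of all genes passed. Without shATGL 3 there were 64 such list genes, where 28.8% of all genes tested passed. Without shATGL 2 there were 7, and the share of all genes was not counted for that omission. The 36 and the 7 therefore cannot be read as results about the lists. Of the 36 list genes looked at singly, taken for the highest level or the smallest p-value of each list, 19 had an adjusted p-value under 0.05 in edgeR without shATGL 3 and 0 with it. Since part of them were picked by p-value, this share cannot be read against the 14.0% of all genes, and it describes these genes and not the lists.

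Around *GPX4*, the cystine and glutathione list had 12 of 15 tested genes lower (median −0.09), where 48.1% of all genes tested were lower. An unadjusted p-value under 0.05 was held by 1 of the 15, which is 6.67% against 11.7% of all genes tested. This was *TXN*, the thiol reductant thioredoxin, with 174 ± 13.7 CPM for shNC against 142 ± 5.97 CPM (SD, n = 3, log2 fold change −0.29, edgeR adjusted p = 0.392). The most abundant genes of this list were *PGD* of the pentose phosphate pathway (389 and 345 CPM) and the glutamine transporter *SLC1A5* (307 and 288 CPM). In the list of selenoprotein synthesis and other peroxide reductases 9 of 15 were lower (median −0.11). Of the 15, 5 (33.3%) had an unadjusted p-value under 0.05, 1 higher and 4 lower. Among them, *GPX1*, the cytosolic glutathione peroxidase, was at 1030 ± 98.7 and 834 ± 86.6 CPM (SD, n = 3, log2 fold change −0.30, edgeR adjusted p = 0.392). *MGST2*, a microsomal glutathione transferase, was at 67.0 ± 4.56 and 53.1 ± 6.38 CPM (SD, n = 3, −0.34, edgeR adjusted p = 0.392).

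Around *AIFM2* and *DHODH*, which both act through coenzyme Q, 16 of 20 genes of coenzyme Q synthesis and FSP1 partners were lower (median −0.06), with 3 at an unadjusted p-value under 0.05. *COQ8A* and *COQ2*, 2 enzymes of the coenzyme Q pathway, had log2 fold changes of −0.22 and −0.29 (edgeR adjusted p = 0.392 for both). *NMT1*, which adds the myristoyl group that anchors FSP1 to membranes, was at 157 and 155 CPM. In the pyrimidine list around *DHODH* 10 of 11 were lower (median −0.10), and 3 (27.3%) had an unadjusted p-value under 0.05, 1 higher and 2 lower. *CAD*, which catalyses the steps before *DHODH*, had the opposite sign, with 126 ± 3.44 CPM in shNC and 142 ± 5.0 CPM under the other label (SD, n = 3, log2 fold change 0.17, unadjusted p = 0.0187, edgeR adjusted p = 0.392), and its log2 fold change was 0.06 with length and GC trends removed.

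Around *GCH1*, 8 of 10 genes of tetrahydrobiopterin synthesis and recycling were lower (median −0.11) and 3 had an unadjusted p-value under 0.05. *SPR*, which completes tetrahydrobiopterin, was at 35.1 ± 1.73 and 29.6 ± 2.92 CPM (SD, n = 3, log2 fold change −0.25, edgeR adjusted p = 0.4).

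Around the synthetases and *LPCAT3*, signs were more even among other acyl-CoA synthetases and acyl loading genes, but not in desaturation and elongation. Of the other acyl-CoA synthetases 8 were higher and 10 lower (median −0.04). An unadjusted p-value under 0.05 was held by 1 of them, which is 5.56% against 11.7% of all genes tested. This was the mitochondrial malonyl-CoA synthetase *ACSF3* (30.9 and 35.5 CPM, log2 fold change 0.20, edgeR adjusted p = 0.399). Of phospholipid acyl loading and release 10 were higher and 9 lower (median 0.00), and 1 (5.26%) passed the unadjusted threshold. This was *DBI*, which binds acyl-CoA, at 81.2 ± 10.5 and 66.8 ± 4.47 CPM (SD, n = 3, log2 fold change −0.28, edgeR adjusted p = 0.396). In desaturation and elongation 4 were higher and 10 lower (median −0.03), and 3 (21.4%) passed the unadjusted threshold, 1 higher and 2 lower. The most abundant, *SCD*, which makes monounsaturated fatty acids, was at 353 and 341 CPM (−0.05, edgeR adjusted p = 0.773), and *ELOVL7* and *ELOVL3*, elongases at 1.03 to 4.17 CPM on average, had log2 fold changes of 0.59 and −0.47 (edgeR adjusted p = 0.396 and 0.392).

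In the list of lipid peroxidation and ether lipid synthesis 6 were higher and 7 lower (median −0.04). The unadjusted threshold was passed by 3, 2 higher and 1 lower, which is 23.1% against 11.7% of all genes tested. *ALOX5*, which oxygenates arachidonic acid, was at 5.24 ± 0.609 and 7.02 ± 1.02 CPM (SD, n = 3, log2 fold change 0.42, edgeR adjusted p = 0.399), and *CYBB*, the phagocyte oxidase subunit, at 3.40 and 4.91 CPM (0.53, edgeR adjusted p = 0.392). *PEBP1*, known to bind lipoxygenases, was at 201 and 175 CPM (−0.20, edgeR adjusted p = 0.425). Of the regulators of ferroptosis 10 were higher and 13 lower (median −0.06), and 5 (21.7%) passed the unadjusted threshold, 1 higher and 4 lower. Among the 4 were *VDAC3* (−0.19), *FTL* (−0.27) and *ATF4* (−0.22), with edgeR adjusted p-values of 0.392 to 0.411.

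**Figure D5:**
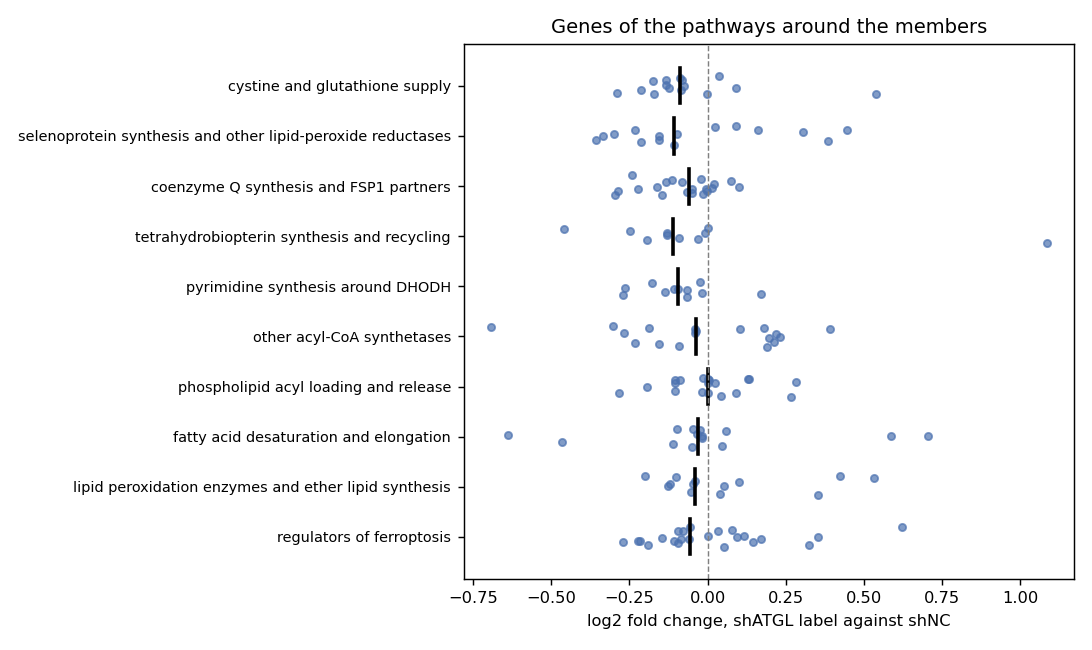
Log2 fold change (x axis) of every tested gene of the 10 lists around the members, each point a gene and each black bar the median of its list, with points spread vertically only for display. The medians lie between −0.11 and 0.00, and no point passed the adjusted threshold.

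As a description of pattern only, the genes most like *GPX4* across the 6 libraries, by Pearson's r of log2(CPM + 1) among 9296 other genes with a mean of at least 10 CPM, were *ATP5F1D*, *DYNLRB1* and *MED18* (r of 0.9996, 0.9989 and 0.9986), and 1450 genes had an r of 0.9 or more. Those most like *ACSL4* were *ETFDH*, *NCAPG2* and *ZNF131* (r of 0.998 for each), and 1222 genes had an r of 0.9 or more. Among the members, *AIFM2* had an r of 0.924 with *GPX4*, and *ACSL3* had 0.927 with *ACSL4*. All of these genes were read from the same 6 libraries with the length and GC trends given above, whose part in the correlations was not tested.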

How the data were processed

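The authors sequenced 6 MV4-11 libraries as paired ends, removed low-quality reads with FASTP and deposited raw counts per Ensembl gene, without normalization. The submitters' processing notes name mm10, a mouse build, while the identifiers are human. The aligner, the counting tool and its strand setting are not given in the sources used here. Groups came from the sample titles. Of 61806 rows, 61757 were matched to a name and 58254 to GENCODE 29 (GRCh38), whose longest basic transcript gave length and GC content for 97.0% of the genes tested.

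The deposited counts entered the quasi-likelihood test of edgeR 4.0.16 (R 4.3.3) after filterByExpr (minimum count 10, minimum total 15) and TMM, with no block. Benjamini-Hochberg adjustment ran over 19149 genes. Tests of 1 value were exact permutation tests over 20 relabellings, two-sided. Alternatives used DESeq2 1.42.0, limma 3.58.1 (voom), other normalizations and filters, a block for replicate numbers, omission of each library, and offsets that removed each library's trend with length and GC content (natural splines, 4 degrees of freedom). On simulated data with 200 changed genes of 18582, raised 2.5-fold or lowered to 0.4, edgeR called 172 and 4 unchanged genes. These simulated libraries had no trend with length or GC content. The changes were larger than the fitted difference of any member, so this run cannot tell how often differences of the members' size would be found. Intervals for counts of 0 cover counting error only.

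The members, the lists and the alternatives were chosen with earlier results of these data known. Besides the members and *PNPLA2*, each list names up to 2 genes with the highest mean CPM and 2 with the smallest p, and the 3 genes closest in pattern to *GPX4* and *ACSL4* are named.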

Additional observations from a re-analysis of the deposited data

How the results depend on the processing

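No member was called in any alternative with all 6 libraries or with 1 left out. Of 14 alternatives for each member, the 7 others kept their sign in all, and *ACSL3* (−0.084) and *ACSL4* (−0.024) reversed with length and GC trends corrected. In that fit the median over all genes tested was −0.0546, against 0.0115 in the main fit. The number of members with an unadjusted p-value under 0.05 was 5 with voom (30.6% of all genes), 1 with the replicate block (17.3% of all genes, 43 genes of the pathway lists, 0 genes called) and 0 to 5 when 1 library was left out (5 without shATGL 3 and 28.8% of all genes, 1 without shNC 3 and 5.58%). With 1 library left out, log2 fold changes went from 0.043 to 0.298 for *ACSL3*, 0.05 to 0.412 for *ACSL4*, 0.068 to 0.195 for *ACSL1*, −0.149 to −0.071 for *ACSL5*, 0.036 to 0.157 for *LPCAT3*, −0.194 to −0.079 for *GPX4*, −0.209 to −0.082 for *AIFM2*, −0.145 to −0.05 for *DHODH* and −0.434 to −0.214 for *GCH1*. The number of all genes called was 3 with upper-quartile normalization, 24 with DESeq2 (19 higher, 5 lower), 266 with voom (241 higher, 25 lower) and 0 to 319 when 1 library was left out (0 without shNC 3 or shATGL 1, 2 without shNC 1, 319 without shATGL 3). In the pathway lists the genes at an unadjusted p-value under 0.05 went from 7 (without shATGL 2) to 64 (without shATGL 3), against 28 of 158 tested with all libraries. There were 18 without shNC 1 or 2, 10 without shNC 3 and 9 without shATGL 1. They were 36 with length and GC trends corrected and 20 with DESeq2. Of all genes tested, 28.8% passed without shATGL 3, 5.58% without shNC 3, 12.1% with DESeq2 and 11.7% in the main fit. For the other omissions and the trend correction the share was not counted, so their counts cannot be read as results about the lists. When 1 library was left out, the difference in share of ACSL counts went from −0.863 (without shATGL 3) to 1.42 points for *ACSL1*, from −0.201 (without shATGL 2) to 2.19 for *ACSL3*, from 0.00536 to 4.18 for *ACSL4* and from −5.51 to −1.40 for *ACSL5*. The share of *ACSL3* was also −0.0624 without shNC 1 and −0.0335 without shATGL 1. The log2 ratio of *ACSL4* to *ACSL3* went from −0.0293 (without shNC 3) to 0.145, with −0.00188 without shATGL 1. The cause of these changes was not tested. Deviations of libraries with the same number correlated at 0.06, 0.233 and 0.343 over 13935 genes, and those with different numbers at −0.291 to 0.192. The pairs of libraries numbered 3 and 2 had the highest values, 0.343 and 0.233. The pair numbered 1, at 0.06, lay below shNC 2 with shATGL 1, at 0.192. The labels do not say whether the numbers pair the libraries, and this was not tested. The main fit had no block, and the replicate block changed no member's call.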

Other observations

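Ratios between members within a library, chosen after their values were seen, set the synthetases against *GPX4*. The ratio of *ACSL4* to *GPX4* counts was 0.418, 0.414 and 0.295 across shNC 1 to 3, against 0.581, 0.551 and 0.301 across shATGL 1 to 3. That of *ACSL3* to *GPX4* was 0.459, 0.518 and 0.412 in shNC and 0.641, 0.654 and 0.392 in the shATGL-labelled libraries. In both ratios shATGL 1 and 2 were above every shNC library and shATGL 3 was near shNC 3. Over the 5 ratios computed, the adjusted p-values of the exact permutation test went from 0.5 to 0.8. None could have been under 0.1 whatever the values. The ratio of *ACSL1* to *ACSL5*, at 0.627, 0.621 and 0.538 in shNC and 0.716, 0.715 and 0.668 in the shATGL-labelled libraries, was the 1 whose groups did not overlap (exact permutation p = 0.1, adjusted p = 0.5).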
